A study of Mus musculus with 12 samples.

Results

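Visceral mesoderm transcription factors are gene regulators of the embryonic tissue that surrounds the gut and gives rise to the mesenchyme of abdominal organs. The 6 studied here are Nkx2-3, Tcf21, Wt1, Foxf1, Meis1 and Meis2, taken by gene symbol from a table of 10253 genes. All 6 were listed and all 6 passed a filter on low values (at least 1 RPKM in at least 3 of 12 libraries), which left 9764 genes for testing. RPKM is the number of reads divided by exon length and by the mapped reads of the library, so levels of different genes can be set side by side.

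RNA was sequenced from lymph node stromal cells (SCs) sorted from adult BALB/c mice as CD45-CD24-CD31- cells that carry podoplanin (Pdpn, gp38), a gate meant to keep fibroblastic SCs and to leave out leukocytes, endothelial cells and cells with CD24. The 4 groups were mLN SPF (gut-draining mesenteric nodes of mice kept free of specific pathogens, with a microbiota), mLN GF (the same nodes of germ-free mice), pLN SPF (skin-draining peripheral nodes of SPF mice) and pLN GF (the same of GF mice), with 3 libraries each. No group carried a transgene or other modified allele according to the labels, and the labels do not say whether replicates came from separate animals. The study describes replicates of its bulk sequencing as independent experiments, without tying libraries to animals, so p-values measure the spread between these libraries, which may in part be technical. Per the study's methods the SPF and GF mice came from different colonies, and it names their BALB/c lines differently. The age ranges it gives overlap, but the range of GF mice is slightly younger. Housing, colony, line and age therefore cannot be told apart. The source label of the skin-draining samples also calls them mesenteric, and the sample titles were followed instead.

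As background, Nkx2-3 is a homeobox factor needed for spleen and gut-associated lymphoid tissue, Tcf21 is a basic helix-loop-helix (bHLH) factor of visceral mesenchyme, and Wt1 is a zinc finger factor of mesothelium, kidney and spleen primordium. Foxf1 is a forkhead factor of splanchnic mesoderm that is induced there by Hedgehog ligands from the gut epithelium. Meis1 and Meis2 are homeobox proteins of the TALE class, which bind DNA together with Pbx partners, in visceral mesoderm and in many other tissues.

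Nkx2-3 and Tcf21 stood at almost nothing in pLN and in the upper part of the range of genes in mLN, so the promoters of both are shown. They are RefSeq sequences on GRCm38.p6, from 250 bases before to 50 bases after the annotated start, written 5′ to 3′ on the strand of the gene. The Nkx2-3 window is chr19:43612075-43612374 on the plus strand and the Tcf21 window is chr10:22820094-22820393 on the minus strand. Capitals mark matches on either strand to CCAAT (the CCAAT box, ATTGG on the other strand) and GGGCGG (the GC box, CCGCCC on the other strand).
Nkx2-3: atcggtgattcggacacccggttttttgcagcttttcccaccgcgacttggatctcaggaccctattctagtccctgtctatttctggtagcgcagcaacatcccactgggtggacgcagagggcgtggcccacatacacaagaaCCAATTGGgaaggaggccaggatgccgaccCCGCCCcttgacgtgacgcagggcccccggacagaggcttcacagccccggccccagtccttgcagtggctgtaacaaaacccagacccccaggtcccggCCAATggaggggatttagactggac
Tcf21: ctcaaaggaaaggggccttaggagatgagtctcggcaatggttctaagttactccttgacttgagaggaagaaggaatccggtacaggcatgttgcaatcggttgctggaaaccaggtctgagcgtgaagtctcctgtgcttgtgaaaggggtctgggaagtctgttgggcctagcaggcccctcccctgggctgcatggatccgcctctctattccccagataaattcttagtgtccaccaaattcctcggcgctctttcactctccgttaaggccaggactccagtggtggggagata

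The Nkx2-3 window held 3 matches to CCAAT, a pair of them overlapping on opposite strands at -105 and -102 from the start and the other at 25, and 1 match to GGGCGG at -75. The Tcf21 window held no match to either. The Meis1 and Meis2 windows held 1 CCAAT match each, at -54 and -210. Of 32544 RefSeq promoters of the same length, 37.4% held CCAAT and 35.9% held GGGCGG. The search, on both strands, also took in 4 motifs that had no match in any of the 4 windows. The letters TGACAG, bound by Meis proteins, occurred in 19.1% of promoters. The core CAAGTG of NKX2 factors occurred in 13.5%, the forkhead motif GTAAACA in 3.66% and CANCTG, 1 kind of bHLH E-box, in 51.5%. Other kinds of E-box were not searched, so their absence is not shown. A match is a description of the letters and not a binding site. The windows of Wt1 and Foxf1 are not shown here.

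The genes span, on GRCm38, chr19:43612325-43615892 (Nkx2-3, plus strand), chr10:22817281-22820174 (Tcf21, minus), chr2:105126529-105173616 (Wt1, plus), chr8:121084386-121088144 (Foxf1, plus), chr11:18879817-19018985 (Meis1, minus) and chr2:115863064-116065839 (Meis2, minus). Values are for whole genes, over exons. Strand is not kept by the library chemistry, and where an antisense gene overlaps a factor their reads cannot be told apart. The GENCODE annotation places the antisense gene Gm10824 over Tcf21, Gm20388 on the same strand and the microRNA gene Gm27530 over Foxf1, and 5 noncoding genes over Meis1, among them the antisense genes Gm16140 and Gm16141. None of these has a row in the table, and the values of Tcf21, Foxf1 and Meis1 are uncertain to that extent. Wt1os, an antisense gene, ends 19 bases from Wt1. Meis1 and Meis2 are paralogs, but of 10853 stretches of 50 bases in annotated Meis1 transcripts and 12126 in Meis2 transcripts, 0 occurred in both genes. Of the Meis1 stretches, 1843 also occurred in transcripts of 432 other genes, beside 23 of the Meis2 stretches.

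Depth over the listed genes was 4623295 to 14090731 reads per library, read back from the steps in the RPKM values, and replicates of a group correlated at 0.973 to 0.994 across genes. Pdpn was at 53.9 to 80.5 RPKM in all 12 libraries. Of the endothelial markers, Pecam1 reached at most 1.58 RPKM and Cdh5 0.306 RPKM, and of the lymphatic markers Prox1 reached 0.204 RPKM and Lyve1 0.349 RPKM. Cd24a, the gene of CD24, was at 1.25 to 1.95 RPKM in mLN SPF, 0.891 to 1.17 RPKM in mLN GF, 3.02 to 5.44 RPKM in pLN SPF and 3.82 to 6.66 RPKM in pLN GF. Other markers in the endothelial lists were high. The 12 blood endothelial markers, which include Cd34 and Ly6c1, summed to 1265 to 1358 RPKM in mLN SPF, 1068 to 1136 RPKM in mLN GF, 516 to 806 RPKM in pLN SPF and 297 to 601 RPKM in pLN GF. The 7 lymphatic markers, which include Ccl21a, summed to 77.6 to 244 RPKM in mLN SPF, 339 to 587 RPKM in mLN GF, 3213 to 4554 RPKM in pLN SPF and 5386 to 6963 RPKM in pLN GF. The markers of SC subsets also differed in level between mLN and pLN. All 8 markers of T zone reticular cells were lower in mLN of SPF mice, beside 13.8% of all tested genes. Their summed level was 195 to 475 RPKM in mLN SPF, 632 to 1056 RPKM in mLN GF, 8409 to 9654 RPKM in pLN SPF and 10795 to 14499 RPKM in pLN GF. All 10 markers of CD34+ SCs were higher in mLN of SPF mice, beside 19.7% of all tested genes. Their sums were 5689 to 6123 RPKM in mLN SPF, 4873 to 5516 RPKM in mLN GF, 1745 to 2671 RPKM in pLN SPF and 1070 to 2136 RPKM in pLN GF. These lists moved with every difference by location given below, and their part in the results was not tested. In bulk samples such as these, fewer cells of a type and less RNA per cell cannot be told apart.

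Nkx2-3 was abundant in mLN and at or near zero in pLN. It stood at 41.6, 33.8 and 35.0 RPKM in mLN SPF and 21.9, 24.9 and 22.1 RPKM in mLN GF, against 0, 0.0890 and 0.0307 RPKM in pLN SPF and 0.0669, 0.121 and 0 RPKM in pLN GF. Groups of mLN and pLN did not overlap, and neither did mLN SPF and mLN GF. In reads, the 3 libraries together held 2438 in mLN SPF and 1900 in mLN GF, against 3 in pLN SPF and 6 in pLN GF. For the pLN libraries with 0 reads, a floor of 3 reads allows up to 0.134 RPKM in pLN SPF replicate 1 and 0.242 RPKM in pLN GF replicate 3, for counting error only.

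Tcf21 followed the same pattern at a slightly higher level. It was at 43.7, 45.1 and 52.6 RPKM in mLN SPF and 30.6, 40.1 and 31.7 RPKM in mLN GF, against 0.308, 0.461 and 0.477 RPKM in pLN SPF and 0.116, 0.156 and 0 RPKM in pLN GF. Every mLN library lay far above every pLN library, and within each location every SPF library lay above every GF library. The pLN values rest on 4, 6 and 9 reads in SPF and 2, 3 and 0 reads in GF, where 0 reads allow up to 0.417 RPKM.

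**Figure D1:**
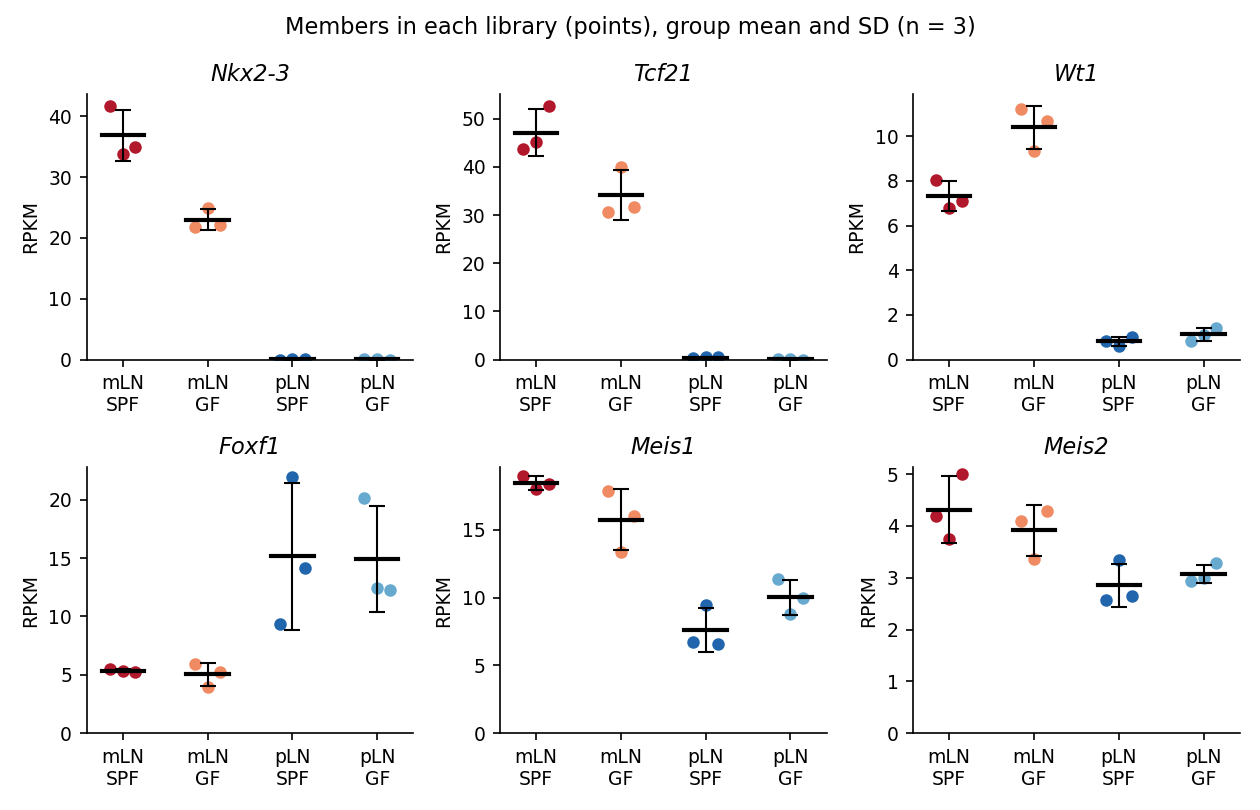
RPKM of the 6 factors in each of the 12 libraries (points), with the group mean (bar) and SD (whisker, n = 3), by group from mLN SPF to pLN GF on a linear axis that starts at 0 in each panel. Nkx2-3 is at 21.9 to 41.6 RPKM in mLN and at most 0.121 RPKM in pLN, and Foxf1 is the only panel in which pLN lies above mLN.

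Wt1, which is known in adult tissue mainly from mesothelium and kidney podocytes, was expressed at a moderate level in mLN. It was at 8.05, 6.80 and 7.08 RPKM in mLN SPF and 11.2, 9.33 and 10.7 RPKM in mLN GF, against 0.854, 0.608 and 1.01 RPKM in pLN SPF and 0.846, 1.11 and 1.43 RPKM in pLN GF. The locations did not overlap, and in mLN every GF library lay above every SPF library. The mesothelial markers Msln and Upk3b were not among the listed genes, so they could not be analysed. The 4 listed of 15 mesothelial markers summed to 40.3 to 44.1 RPKM in mLN SPF and 31.9 to 33.9 RPKM in mLN GF. Their sums were 22.6 to 29.4 RPKM in pLN SPF and 19.3 to 23.8 RPKM in pLN GF. Of the 4, Rspo1, a Wnt agonist, was at 32.3 ± 2.48 RPKM in mLN SPF and 16.7 ± 2.70 RPKM in pLN SPF (SD, n = 3). It was the largest part of the sum and the only one of the 3 tested that passed by location in SPF mice. Cldn15 (-0.06) and Bcam (0.14) did not. Between mLN SPF and mLN GF, 0 of the 3 passed. The part of mesothelial cells in the Wt1 values was not tested.

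Foxf1 alone of the 6 was lower in mLN. It was at 5.49, 5.29 and 5.25 RPKM in mLN SPF and 5.93, 3.92 and 5.24 RPKM in mLN GF, against 9.37, 21.9 and 14.1 RPKM in pLN SPF and 20.2, 12.4 and 12.2 RPKM in pLN GF. The locations did not overlap, and the pLN libraries spread widely, with pLN SPF replicate 2 and pLN GF replicate 1 the highest.

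Meis1 and Meis2 were present in all 12 libraries. Meis1 was at 19.0, 18.0 and 18.4 RPKM in mLN SPF and 17.9, 13.3 and 16.0 RPKM in mLN GF, against 6.75, 9.47 and 6.55 RPKM in pLN SPF and 11.4, 8.78 and 9.95 RPKM in pLN GF. Meis2 was at 4.20, 3.74 and 5.01 RPKM in mLN SPF and 4.09, 3.35 and 4.29 RPKM in mLN GF, against 2.57, 3.33 and 2.65 RPKM in pLN SPF and 2.94, 2.99 and 3.28 RPKM in pLN GF. For both genes the locations did not overlap within either housing, but the margin was narrow for Meis2.

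Set in order by mean RPKM in mLN SPF, Tcf21 (47.1 ± 4.80, SD, n = 3 here and below) came first, then Nkx2-3 (36.8 ± 4.21), Meis1 (18.4 ± 0.494), Wt1 (7.31 ± 0.660), Foxf1 (5.34 ± 0.130) and Meis2 (4.32 ± 0.640). The libraries of each neighbouring pair did not overlap there. In mLN GF the order was the same down to Wt1 (10.4 ± 0.963), with Foxf1 (5.03 ± 1.02) and Meis2 (3.91 ± 0.494) overlapping. In pLN SPF the order was Foxf1 (15.1 ± 6.33), Meis1 (7.59 ± 1.63), Meis2 (2.85 ± 0.418), Wt1 (0.823 ± 0.201), Tcf21 (0.415 ± 0.0930) and Nkx2-3 (0.0399 ± 0.0452), with Foxf1 and Meis1 overlapping. In pLN GF Foxf1 was again first (14.9 ± 4.54), and Tcf21 (0.0906 ± 0.0811) and Nkx2-3 (0.0626 ± 0.0605) overlapped at the bottom. Within a library, Nkx2-3 ranked above 86.0% to 88.8% of listed genes in mLN SPF and above no more than 2.17% in pLN of either housing.

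Location was compared first in mice with a microbiota. Of the 6 factors, 5 were higher in mLN (Nkx2-3, Tcf21, Wt1, Meis1, Meis2) and 1 was lower (Foxf1) by limma at an adjusted p below 0.05, and all but Meis2 changed at least 2-fold. Over all tested genes 33.5% passed at this threshold (19.7% higher, 13.8% lower) and 10.4% also changed at least 2-fold. By number 1924 were higher and 1347 lower, a split that became 1446 and 1609 after rescaling by median ratios, which altered the direction of none of the 6. The libraries of mLN SPF and pLN SPF did not overlap for any of the 6, as for 43.5% of all tested genes. Differences are given as log2(RPKM + 1) with the standard error, a scale that understates changes of low genes. Nkx2-3 differed by 5.18 ± 0.11 (limma adjusted p = 1.2e-13), the smallest adjusted p of the 9764 genes. On summed reads it was 948-fold higher in mLN, with a 95% interval of 324 to 4600 for counting error only. Tcf21 differed by 5.09 ± 0.13 (limma adjusted p = 4.3e-13) and by 112-fold on summed reads (71.6 to 187).

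Wt1 was higher by 2.19 ± 0.13 (limma adjusted p = 3.4e-09) and Meis1 by 1.19 ± 0.14 (limma adjusted p = 7.9e-06). In linear RPKM these are ratios of means of 8.88 and 2.43. Foxf1 differed by -1.27 ± 0.24 (limma adjusted p = 5.4e-04), with pLN at 2.84 times the mLN mean. Without pLN SPF replicate 2 the Foxf1 difference was -0.98, under 2-fold, and still passed. Meis2 was higher by 0.46 ± 0.13 (limma adjusted p = 0.0090), and without mLN SPF replicate 3 it did not pass (0.37, limma adjusted p = 0.059, over all alternatives 0.0042 to 0.059).

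**Figure D2:**
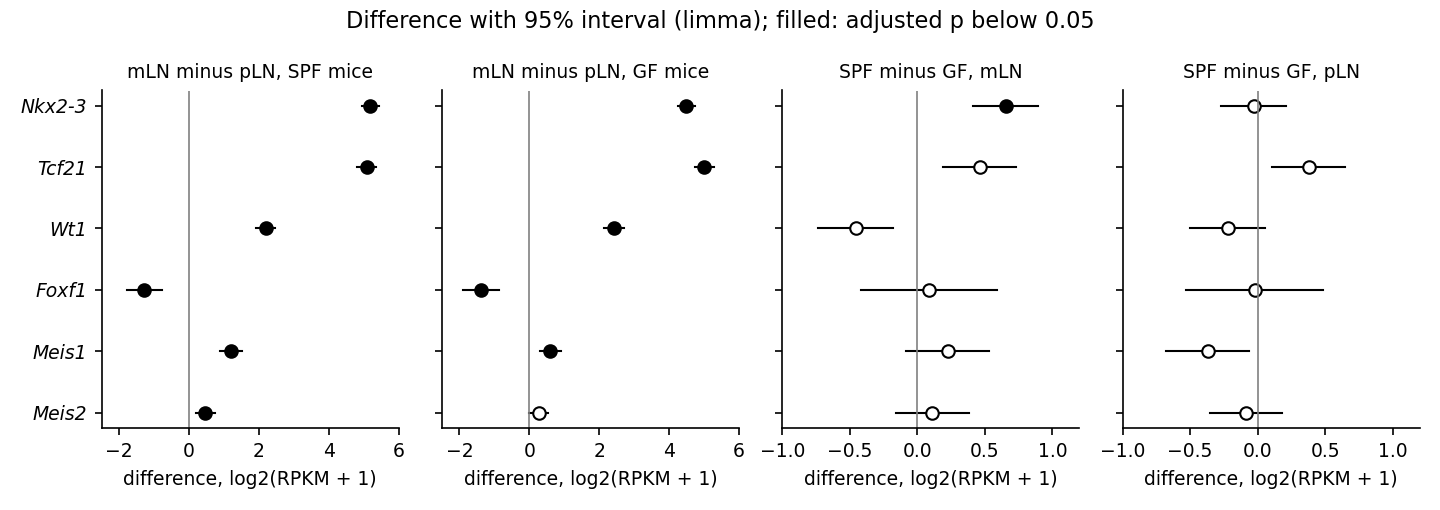
Difference of each factor on the log2(RPKM + 1) scale with its 95% interval, in 4 comparisons (mLN minus pLN in SPF and in GF mice, SPF minus GF in mLN and in pLN), with filled points for a limma adjusted p below 0.05. The 2 location panels have a wider axis than the 2 housing panels. Nkx2-3 and Tcf21 lie between 4.49 and 5.18 by location in both housings, and Nkx2-3 in mLN is the only filled point by housing.

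In GF mice, whose libraries are separate from those of SPF mice, 4 of the 6 factors were higher in mLN and Foxf1 was lower, where 35.4% of all tested genes passed (17.1% higher, 18.4% lower). All of these but Meis1 changed at least 2-fold, as did 11.4% of all tested genes, and mLN GF and pLN GF libraries lay apart for each of the 6, as for 50.2% of all tested genes. Tcf21 differed by 5.00 ± 0.13 and Nkx2-3 by 4.49 ± 0.11 (limma adjusted p = 3.9e-13 for both). On summed reads these were 308-fold (132 to 949) and 293-fold (134 to 800). Wt1 was higher by 2.43 ± 0.13 (limma adjusted p = 1.7e-09) and Foxf1 differed by -1.38 ± 0.24 (limma adjusted p = 2.4e-04). Meis1 was higher by 0.60 ± 0.14 (limma adjusted p = 0.0039), under 2-fold. Meis2 had a difference of 0.27 ± 0.13 that did not pass (limma adjusted p = 0.11).

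Whether the location difference itself depended on housing was asked with the interaction term. None of the 6 passed by limma, 2 had an unadjusted p below 0.05, and voom on recovered reads also passed 0 of 6, against 0.297% of all tested genes that passed by limma. The 2 were Nkx2-3, whose location difference was larger in SPF mice by 0.69 ± 0.16 (limma adjusted p = 0.10, 0.091 to 0.74 over the alternatives), and Meis1, larger by 0.59 ± 0.20 (limma adjusted p = 0.35). Foxf1 had an interaction of 0.11 ± 0.34 and Tcf21 of 0.08 ± 0.18.

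The housing comparisons set SPF against GF mice at each site, where housing, colony, line and age cannot be told apart. In mLN, Nkx2-3 was higher in SPF mice, the only factor of the 6 to pass, where 4.61% of all tested genes did (2.53% higher). The libraries of mLN SPF and mLN GF did not overlap for 4 of the 6 (Nkx2-3, Tcf21, Wt1, Meis1), against 26.0% of all tested genes. It averaged 36.8 ± 4.21 RPKM in mLN SPF and 23.0 ± 1.70 RPKM in mLN GF (SD, n = 3 each), a ratio of 1.60 and a difference of 0.65 ± 0.11 (limma adjusted p = 0.0030). With a pseudocount of 0.1 in place of 1 it did not pass (0.68 ± 0.26, limma adjusted p = 0.205). There the difference was not smaller, but its standard error was larger. Fitted by voom on the recovered reads, Nkx2-3 passed (limma adjusted p = 0.012). Tcf21 had a difference of 0.46 ± 0.13 (limma adjusted p = 0.051) and Wt1 one of -0.46 ± 0.13 (limma adjusted p = 0.061), of nearly the same size in opposite directions. Each passed without pLN SPF replicate 2 (limma adjusted p = 0.048 for Tcf21 and 0.043 for Wt1). That library is in neither group compared, and both differences were unchanged. Tcf21 also passed without mLN GF replicate 2 (0.58, limma adjusted p = 0.023). Markers of T zone reticular cells were lower in mLN SPF than in mLN GF for 4 of 8 and higher for 0. Over all tested genes 203 of 9764 were lower there. The part of these cells in the results was not tested.

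In pLN none of the 6 passed by limma, 2 had an unadjusted p below 0.05, and voom on recovered reads passed 0 of 6. The libraries did not overlap for Tcf21 alone of the 6, against 27.2% of all tested genes. Over all tested genes 10.8% passed, 395 of them (4.05% of those tested) higher and 658 lower in SPF, a split that was 505 and 325 after rescaling by median ratios. Tcf21 had a difference of 0.38 ± 0.13 (limma adjusted p = 0.071), at 0.415 ± 0.0930 RPKM in pLN SPF and 0.0906 ± 0.0811 RPKM in pLN GF. On summed reads, 19 in pLN SPF and 5 in pLN GF, the ratio was 3.70 with a counting interval of 1.34 to 12.7. Since the pseudocount of 1 exceeds these levels, the value moved with it, and Tcf21 passed at pseudocounts of 0.5 (0.64, limma adjusted p = 0.017) and 0.1 (1.53, limma adjusted p = 0.0068). Meis1 had a difference of -0.37 ± 0.14 (limma adjusted p = 0.12), which passed without pLN SPF replicate 2 (-0.52, limma adjusted p = 0.032).

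The balance of the Meis paralogs was taken as a ratio of RPKM within each library. Meis1 was at 4.52, 4.80 and 3.67 times Meis2 in mLN SPF and 4.37, 3.98 and 3.74 times in mLN GF, against 2.62, 2.84 and 2.47 times in pLN SPF and 3.86, 2.94 and 3.04 times in pLN GF. The ratio was higher in mLN at both housings, although pLN GF replicate 1 lay within the mLN range. On log2 of the values with 1 RPKM added, the mean was 1.82 ± 0.14 in mLN and 1.29 ± 0.21 in pLN (SD, n = 6 each), a difference of 0.53 (exact permutation test within housing, two-sided, p = 0.005, the smallest that its 400 assignments allow). Without the added RPKM the difference was 0.51 (exact permutation p = 0.01).

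**Figure D3:**
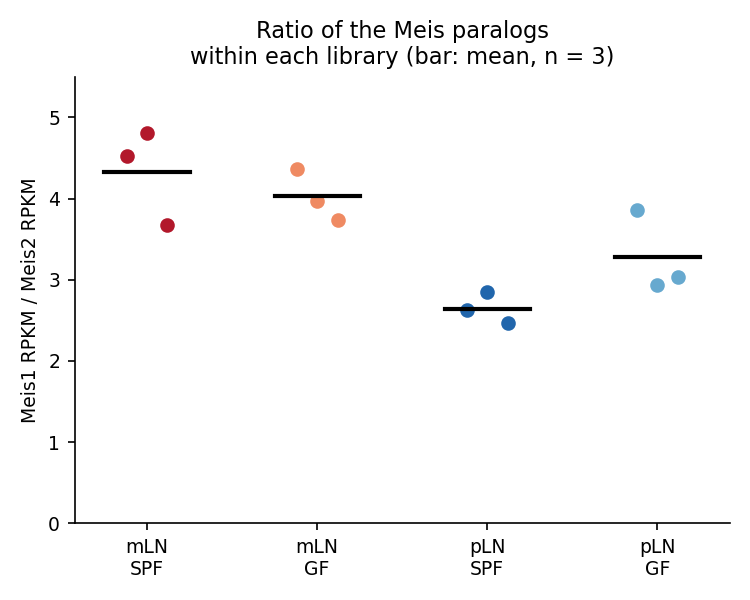
Meis1 RPKM divided by Meis2 RPKM in each library (points) with the group mean (bar, n = 3), on an axis that starts at 0. The mLN libraries lie between 3.67 and 4.80, and the pLN libraries between 2.47 and 3.86.

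Foxf1 and the summed level of perivascular and smooth muscle markers were both lower in mLN than in pLN. The 10 listed of 11 such markers summed to 63.6, 33.9 and 48.9 RPKM in mLN SPF and 136, 50.3 and 114 RPKM in mLN GF, against 553, 606 and 584 RPKM in pLN SPF and 793, 581 and 665 RPKM in pLN GF. Within pLN SPF and within pLN GF, the library with the highest Foxf1 also had the highest sum. Rgs5, a pericyte marker, was at 0.628 to 3.06 RPKM in mLN SPF and 42.3 to 58.8 RPKM in pLN SPF, and Acta2, smooth muscle actin, at 4.22 to 7.50 RPKM in mLN SPF and 95.7 to 103 RPKM in pLN SPF. Of the 10 markers, 9 were lower in mLN of SPF mice and 10 in mLN of GF mice, beside 13.8% and 18.4% of all tested genes. The part of these cells in the Foxf1 difference was not tested.

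**Figure D4:**
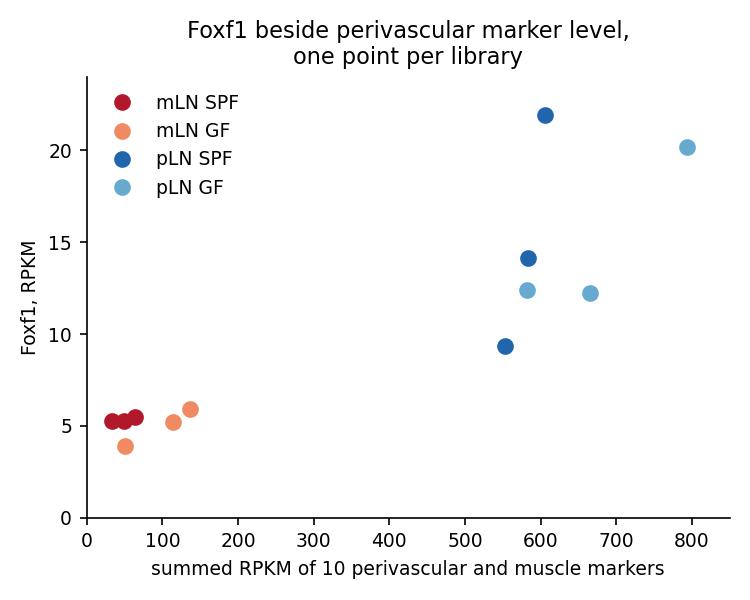
Foxf1 RPKM (vertical axis) against the summed RPKM of 10 perivascular and smooth muscle markers (horizontal axis), 1 point per library, coloured by group. The 6 mLN libraries lie at sums of 33.9 to 136 RPKM with Foxf1 at or below 5.93 RPKM, and the 6 pLN libraries at sums of 553 to 793 RPKM with Foxf1 at 9.37 RPKM or above.

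Beyond the 6, a wider list of 32 factors of visceral mesoderm development had 16 in the table and 15 tested. Of the 9 tested factors other than the 6, 2 were higher and 4 lower in mLN of SPF mice, beside 19.7% and 13.8% of all tested genes, at a median difference of -0.41, where the median over all tested genes was 0.09. In GF mice 2 were higher and 5 lower, beside 17.1% and 18.4%, at a median of -0.48 beside 0.00. The lower ones in SPF mice were Tbx3 (-1.77, limma adjusted p = 5.9e-07), a T-box factor also known from limb and lung mesenchyme, Pbx3 (-1.27, limma adjusted p = 7.8e-06), a TALE partner of Meis proteins, Osr2 (-1.15, limma adjusted p = 2.1e-04), an odd-skipped factor, and Nr2f2 (-1.06, limma adjusted p = 3.8e-06), an orphan nuclear receptor of mesenchyme and veins. The 2 higher ones, named after their values were seen, were Osr1 (0.60, limma adjusted p = 0.017) and Gata6 (0.43, limma adjusted p = 0.015), and both failed the threshold under some alternatives. Osr1 averaged 129 ± 15.2 RPKM in mLN SPF and 87.1 ± 24.9 RPKM in pLN SPF.

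**Figure D5:**
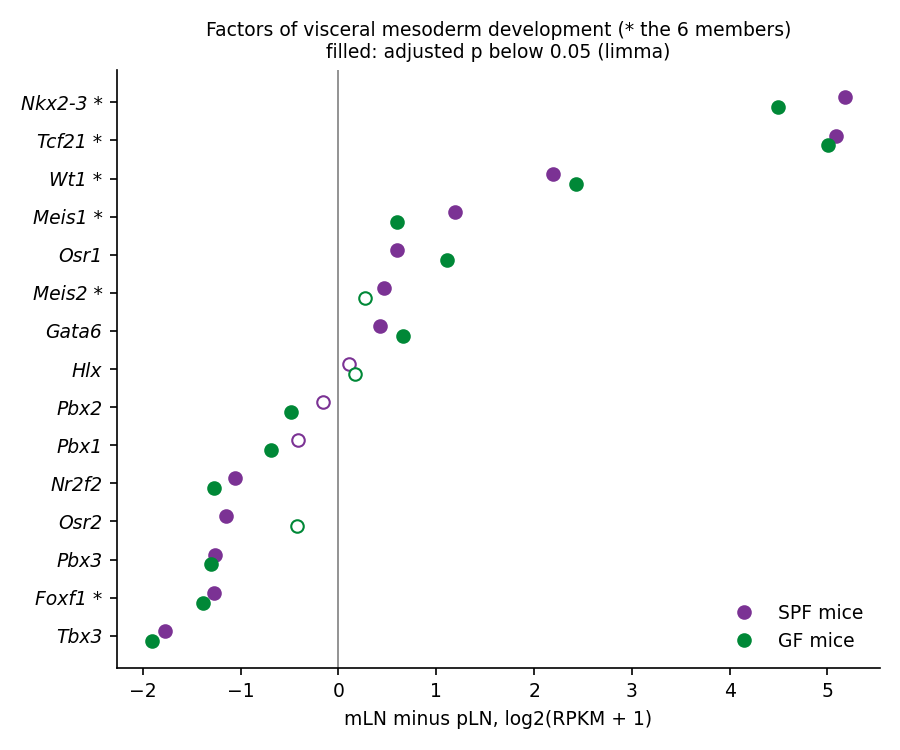
Difference between mLN and pLN on the log2(RPKM + 1) scale for the 15 tested factors of visceral mesoderm development, in SPF mice (purple) and GF mice (green), filled where limma gave an adjusted p below 0.05 and with a star at the 6 factors of the report. Tcf21 and Nkx2-3 stand at 4.49 to 5.18, and Tbx3 is at the other end at -1.77 and -1.91.

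Meis proteins pair with Pbx proteins, which are also TALE factors, and 10 TALE factors were tested with Meis1 and Meis2 included. Of the other 8, 1 was higher and 4 lower in mLN of SPF mice, beside 19.7% and 13.8% of all tested genes, at a median of -0.49. Pknox2 (-1.04), Tgif2 (-1.17) and Pbx3 were lower at least 2-fold, and Pknox1, a Meis relative also called Prep1, was higher at 0.60 (limma adjusted p = 0.0032). Pknox2 averaged 8.19 ± 1.08 RPKM in mLN SPF and 17.8 ± 1.36 RPKM in pLN SPF, so that Meis1 was the more abundant of this pair in mLN and Pknox2 in pLN.

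Hedgehog signalling lies upstream of Foxf1 in gut mesoderm, and 12 genes of this pathway were tested. In SPF mice 4 were higher in mLN and 0 lower, beside 19.7% and 13.8% of all tested genes, at a median of 0.43 beside 0.09 over all genes. Among the higher ones were Disp1, which releases Hedgehog ligands (0.97), Gli3, a transcription factor of the pathway (0.92), and the co-receptor Boc (0.53). In GF mice 6 were higher and 2 lower, beside 17.1% and 18.4%.

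Tcf21 acts as a dimer with E proteins, which Id proteins bind in its place. Of 12 tested genes for E proteins, Id proteins and mesenchymal bHLH factors, 1 was higher and 6 lower in mLN of SPF mice, beside 19.7% and 13.8% of all tested genes, at a median of -0.40. Musculin (Msc), a bHLH factor related to Tcf21, ran the other way from it, at 11.4 ± 1.07 RPKM in mLN SPF and 52.1 ± 3.60 RPKM in pLN SPF (-2.10, limma adjusted p = 2.2e-07). Bhlhe40 (-1.71), Hey1 (-1.32) and Id2 (-0.86) were also lower. The only higher gene, Id1 (0.87), was named after its value was seen.

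Retinoic acid acts on visceral mesoderm, and of 12 genes for its synthesis and response 4 were higher and 3 lower in mLN of SPF mice, beside 19.7% and 13.8% of all tested genes, at a median of 0.12. Aldh1a2, the main retinaldehyde dehydrogenase of embryonic mesoderm, averaged 39.0 ± 16.5 RPKM in mLN SPF and 0.308 ± 0.0605 RPKM in pLN SPF (4.86, limma adjusted p = 1.3e-08), a difference near that of Tcf21. Aldh1a3 was higher (2.61), and Cyp26b1, which degrades retinoic acid, was lower (-2.44).

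Genes whose levels were most like those of each factor were ranked by Pearson's r of log2(RPKM + 1) over the 12 libraries, with the 6 factors themselves left out of the ranking. Nkx2-3 and Tcf21 were at 0.997 with each other, above any gene named here. The libraries fall into mLN and pLN clusters, so r mainly follows that split and is given as a description. Nearest to Nkx2-3 were Lhfpl2 (0.993) and the laminin chains Lamb1 (0.992) and Lama4 (0.992). Nearest to Tcf21 were Heg1 (0.993), Tnfrsf11b (0.992), the decoy receptor for the cytokine RANKL, and Cilp (0.991). Tnfrsf11b averaged 31.5 ± 5.73 RPKM in mLN SPF, 28.3 ± 2.03 RPKM in mLN GF, 0.948 ± 0.388 RPKM in pLN SPF and 0.798 ± 0.398 RPKM in pLN GF. Nearest to Wt1 were Mcf2l (0.993), Peg3 (0.991), an imprinted zinc finger gene, and C1qtnf3 (0.990). Peg3, like Wt1, had its highest mean in mLN GF, with 40.3 ± 1.34 RPKM in mLN SPF and 53.8 ± 12.7 RPKM in mLN GF, where the spread was wide.

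Nearest to Foxf1 were Tcf7l2 (0.987), a Wnt effector, Sppl2a (0.984) and Itga6 (0.983), a laminin-binding integrin chain. Itga6 averaged 0.481 ± 0.0936 RPKM in mLN SPF and 4.05 ± 1.50 RPKM in pLN SPF. For Meis1 the nearest were Faf2 (0.964), Plekhg1 (0.958) and Ctr9 (0.958), and for Meis2 they were Nde1 (0.909), Ndst1 (0.905) and Cdc42se1 (0.901). The values for Meis2 were the lowest of the 6, beside the smallest difference by location.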

How the data were processed

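RNA of 12 libraries of sorted SCs was made into cDNA with SMART-Seq v4 and sequenced as single reads of 50 bases. Per the study's methods, reads were aligned with TopHat2 1.2.0 to GRCm38 and counted with HTSeq 0.12.4, and the authors turned raw counts into the deposited RPKM values. The table's 4 log2 fold change and 4 adjusted p columns, from the authors' own DESeq2 comparisons, were not used. Because the values are RPKM and not counts, limma 3.58.1 (R 4.3.3) was fitted to log2(RPKM + 1) over all 12 libraries with 4 group means (8 residual degrees of freedom), after a filter of at least 1 RPKM in at least 3 libraries (9764 genes tested, 489 left out). Adjusted p is by Benjamini-Hochberg over all tested genes, and a gene passed below 0.05. Whole reads were recovered from the RPKM steps for 10247 genes (99.9%, within 1e-05 of a read), and voom on these reads was an alternative, which passed 3045 genes for mLN against pLN in SPF mice. The table holds 18 symbols that a spreadsheet turned into dates. The fit was tested on simulated data.

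Same-numbered SPF libraries deviated together between mLN and pLN (correlations 0.263, 0.456 and 0.182). Some SPF libraries of unlike number did so too, namely mLN replicate 1 with pLN replicate 3 (0.303) and mLN replicate 3 with pLN replicate 1 (0.209). This check therefore cannot decide whether the numbers pair the SPF samples. For GF libraries the same-numbered correlations were 0.228, 0.217 and 0.0792, and the highest of unlike number was 0.0291 (mLN replicate 2 with pLN replicate 3). The labels do not say what a number marks. The 6 factors and all lists were chosen with earlier results of these data known. Named besides the 6 were, of each of 5 role lists, up to 4 genes with the smallest adjusted p for mLN against pLN in SPF mice, the defining genes of 11 marker lists, the 3 genes most correlated with each factor, and genes overlapping a factor. Some genes that this rule takes are not reported here. Promoters are from RefSeq, where 4 of the 6 matched. Alternatives covered pseudocount, filter, scaling, test, libraries in the fit, the replicate block and each library left out. Read intervals cover counting error only.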

Additional observations from a re-analysis of the deposited data

How the results depend on the processing

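For mLN against pLN, the calls of Nkx2-3, Tcf21, Wt1, Foxf1 and Meis1 held in both housings in every alternative that gave a value. A filter of 1 RPKM in all 12 libraries gave no value for Nkx2-3, Tcf21 or Wt1, since it removes genes that are low in pLN. Meis2 in SPF mice ranged from 0.37 to 0.55 with 1 library left out and lost its call at the low end. By housing, calls were less stable. In mLN, Nkx2-3 gave 0.68 at a pseudocount of 0.1 and did not pass, Wt1 passed with only the 2 groups compared (-0.46), and with 1 library left out Tcf21 ranged from 0.38 to 0.58 and Wt1 from -0.53 to -0.41. In pLN, Tcf21 passed at pseudocounts of 0.1 (1.53) and 0.5 (0.64), and Meis1 ranged from -0.52 to -0.29 with 1 library left out. The Tcf21 interaction ranged from -1.51 to 0.20 over the alternatives and passed in none. The cause of these changes was not tested beyond the construction of each alternative.

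Counts over all genes moved too. With only the 2 groups compared, 573 genes passed by housing in pLN. The count that also needs 2-fold was 147 in mLN and 172 in pLN at a pseudocount of 0.1, and 128 and 189 by voom. With 1 library left out, the counts by housing ran from 215 to 535 in mLN and from 378 to 1176 in pLN, the interaction from 13 to 58, and its 2-fold count from 13 to 38. The replicate block changed no call of the 6 factors and gave 3194 genes for mLN against pLN in SPF mice beside 3271 without it. A replicate block within the 6 SPF libraries alone, chosen after seeing the data, gave 3716. Over 50 further list genes in 4 comparisons, 4226 alternative values included 0 that reversed a call, while 87 lost and 60 gained one. Depth limits Nkx2-3 and Tcf21 in pLN, which rest on at most 9 reads per library.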

Other observations

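By housing, genes around the 6 factors showed changes that the report has not described. In the Hedgehog list 3 of 12 tested genes were higher in SPF than in GF mice in mLN and 3 of 12 in pLN, with 0 lower at either site. Over all tested genes 2.53% were higher in mLN and 4.05% in pLN. Libraries of mLN and pLN are separate, but the labels do not say whether both nodes came from the same animals, so the sites may not be independent. Named after their values were seen, Ptch1 (0.67 in mLN and 0.56 in pLN) and Disp1 (0.68 in mLN and 0.61 in pLN) passed at both sites by limma, and each lost a call at both sites under some alternatives. Foxf1, a known Hedgehog target in gut mesoderm, differed by 0.09 in mLN and -0.02 in pLN and did not pass. Over all tested genes the median difference was 0.01 in mLN and -0.06 in pLN.

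Of the 4 genes for Id proteins, which bind the E protein partners of Tcf21, 3 were higher in SPF mice at each site. Over all tested genes 2.53% were higher in mLN and 4.05% in pLN. The Id genes belong to the list of 12 tested E protein, Id and bHLH genes. In that list 3 were higher and 0 lower at each site, so no other member passed. Id1 (1.03), Id2 (0.57) and Id4 (0.98) passed in mLN and Id2 (1.05), Id3 (0.52) and Id4 (1.85) in pLN, all named after their values were seen, while Id3 in mLN (0.50, limma adjusted p = 0.066) and Id1 in pLN (0.10, limma adjusted p = 0.76) did not pass. Id4 averaged 15.6 ± 1.83 RPKM in mLN SPF and 7.58 ± 2.53 RPKM in mLN GF, and 16.2 ± 1.19 RPKM in pLN SPF and 3.80 ± 0.594 RPKM in pLN GF. In pLN the visceral factors Osr1 (1.14), Osr2 (1.06) and Gata6 (0.49) were higher in SPF mice, while none of the 6 factors passed there. Of these calls, Id2 in mLN and Id3 and Gata6 in pLN were lost under some alternatives. Osr2 averaged 18.7 ± 4.70 RPKM in pLN SPF and 8.45 ± 2.33 RPKM in pLN GF. Housing, colony, line and age cannot be told apart in any of these comparisons.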
